A study of Mus musculus with 4 samples.

Results

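The keratin genes of the mouse were followed here through sections of mammary tumours and of the lungs of the same animals. Every gene with a symbol made of Krt and digits alone was taken, which gave 45 keratins among 19465 measured genes. By what they are known for, 4 are simple keratins (Krt7, Krt8, Krt19 and Krt20), 3 basal (Krt5, Krt14 and Krt15), 2 wound-induced (Krt16 and Krt17), 5 suprabasal epidermal (Krt1, Krt2, Krt9, Krt10 and Krt77), 4 mucosal or corneal, 8 of the hair follicle root sheath, 12 of the hair shaft, and 7 are others such as Krt80 and Krt23. Krt18, the usual partner of Krt8, was not analysed here.

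The samples were 1 primary tumour section and 1 lung section from each of 2 BALB/c mice, called A and B here (the lower and the higher of the animal numbers in the labels). Each mouse had received 100000 4T1 cells, a BALB/c mammary carcinoma line, in the mammary fat pad at 8 weeks of age, and tissues were taken 28 days later. All 4 sections thus came from tumour-bearing animals, with no tissue of an untreated mouse, and tumour and lung of a mouse are paired. Sections of fixed, paraffin-embedded tissue were placed on Visium slides, where pairs of gene-specific probes are read out as unique molecular identifiers (UMIs) in spots that can each hold several cells.

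Keratins are the intermediate filament proteins of epithelial cells, built from pairs of an acidic type I and a basic type II chain. Simple keratins such as Krt8 mark single-layered epithelia and most carcinomas, Krt5 and Krt14 mark the dividing basal layer of stratified epithelia, and Krt1 with Krt10 replace them as cells move up in the epidermis. In the mouse the type I genes other than that of Krt18 lie together on 1 chromosome and the type II genes on another, and here 25 keratins lay on chromosome 11 and 20 on chromosome 15 (GRCm38).

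Of 9445 spots under tissue, 9339 with over 200 genes were kept, with 10890154 to 30240176 UMIs per section and medians of 1820 to 9174.5 UMIs per spot, lowest in the primary tumour of mouse B. Levels are given as counts per 1000000 UMIs (CPM) of a section or of a group of spots. Because each gene is read by its own probes, CPM values are set side by side between samples and not between genes. In summed spots, fewer cells of a type and less RNA per cell cannot be told apart. For a level of probe signal in tissue where a gene is not in use, 1178 olfactory and vomeronasal receptor genes were summed in the same way, and their 95th percentile was 1.70 CPM in the primary tumour of mouse A, 19 CPM in that of mouse B, 0.539 CPM in the lung of mouse A and 0.397 CPM in the lung of mouse B. The primary tumour of mouse B therefore stood apart, with 42.5 receptor UMIs per spot against 1.59 to 4.72 in the other sections.

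The promoters of 33 of the 45 keratins were found in the RefSeq table of GRCm38.p6, as windows from 250 bases before to 50 bases after a start, 34 windows in all since Krt13 has 2. Those of Krt7, Krt8 and Krt10 are shown because these are the 3 keratins above the receptor level in every section. They lie at chr15:101412153-101412452 on the plus strand, chr15:102004293-102004592 on the minus strand and chr11:99389315-99389614 on the minus strand, and capitals mark every match, on either strand, to TATAAA (the letters of the TATA box), TGANTCA (the AP-1 motif), GCCNNNGGC (the AP-2 motif) or GGGCGG (the GC box).
Krt7: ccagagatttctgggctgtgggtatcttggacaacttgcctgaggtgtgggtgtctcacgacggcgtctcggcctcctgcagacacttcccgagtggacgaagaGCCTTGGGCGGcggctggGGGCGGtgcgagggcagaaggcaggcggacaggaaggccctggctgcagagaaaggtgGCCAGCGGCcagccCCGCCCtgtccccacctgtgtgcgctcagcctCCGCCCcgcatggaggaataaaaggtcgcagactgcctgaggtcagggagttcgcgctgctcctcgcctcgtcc
Krt8: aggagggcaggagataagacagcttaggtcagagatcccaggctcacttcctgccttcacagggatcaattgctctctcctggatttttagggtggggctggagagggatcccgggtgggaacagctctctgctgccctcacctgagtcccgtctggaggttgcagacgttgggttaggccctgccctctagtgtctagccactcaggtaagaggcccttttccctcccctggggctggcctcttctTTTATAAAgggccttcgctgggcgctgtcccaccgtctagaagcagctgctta
Krt10: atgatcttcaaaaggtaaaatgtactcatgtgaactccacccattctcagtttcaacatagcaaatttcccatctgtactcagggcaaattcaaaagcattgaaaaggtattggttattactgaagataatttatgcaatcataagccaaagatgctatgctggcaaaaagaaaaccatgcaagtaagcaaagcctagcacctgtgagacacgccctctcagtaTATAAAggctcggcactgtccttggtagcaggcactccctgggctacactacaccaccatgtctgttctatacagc
The Krt7 window held 4 matches to GGGCGG and 2 to GCCNNNGGC, of which 1 overlaps a GGGCGG, and none to TATAAA. The Krt8 window held 2 overlapping matches to TATAAA, one on each strand, which start at -3 and -1 from the start, and the Krt10 window held 1, which starts at -26. TATAAA was present in 18 of the 34 keratin windows, against 13.6% of 32851 promoters of the same length, TGANTCA in 2 of 34 against 7.81%, GCCNNNGGC in 6 of 34 against 16.6%, and GGGCGG in 2 of 34 against 35.7%. These are letter matches, given as a description.

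The genes named most often below lie as follows in GRCm38. On chromosome 15, the type II genes Krt80 (chr15:101347444-101370162, minus strand) and Krt7 (chr15:101411043-101430313, plus strand) are neighbours in the cluster, followed by Krt5 (chr15:101707070-101712898), Krt1 (chr15:101845426-101850794) and Krt8 (chr15:101996698-102004482, minus strand). On chromosome 11, Krt10 (chr11:99385254-99389364) and Krt23 (chr11:99477974-99493137) are followed by Krt15 (chr11:100131758-100135928), Krt19 (chr11:100140810-100148665), Krt14 (chr11:100203162-100207548), Krt16 (chr11:100246091-100248902) and Krt17 (chr11:100256217-100261029).

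Keratin UMIs were summed over whole sections, and since probes differ between genes the shares describe UMIs and not amounts of RNA. Krt7 and Krt8 together gave 72.4% of the keratin UMIs in the primary tumour of mouse A, 72.2% in that of mouse B, 72.2% in the lung of mouse A and 84.5% in the lung of mouse B. All 45 keratins together reached 664, 954, 715 and 915 CPM in the same order of sections, so that tumours and lungs overlapped in their total. The number of keratins above the 95th percentile of the receptor genes was 12 in the primary tumour of mouse A, 3 in that of mouse B (Krt7, Krt8 and Krt10), 8 in the lung of mouse A and 12 in the lung of mouse B. The number above the highest single receptor gene was 3, 2, 6 and 5 in the same order, and Krt10 in the tumour of mouse B was below that gene, at 86.3 CPM. In the primary tumour of mouse B the other 42 lay between 0 and 9.83 CPM.

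**Figure D1:**
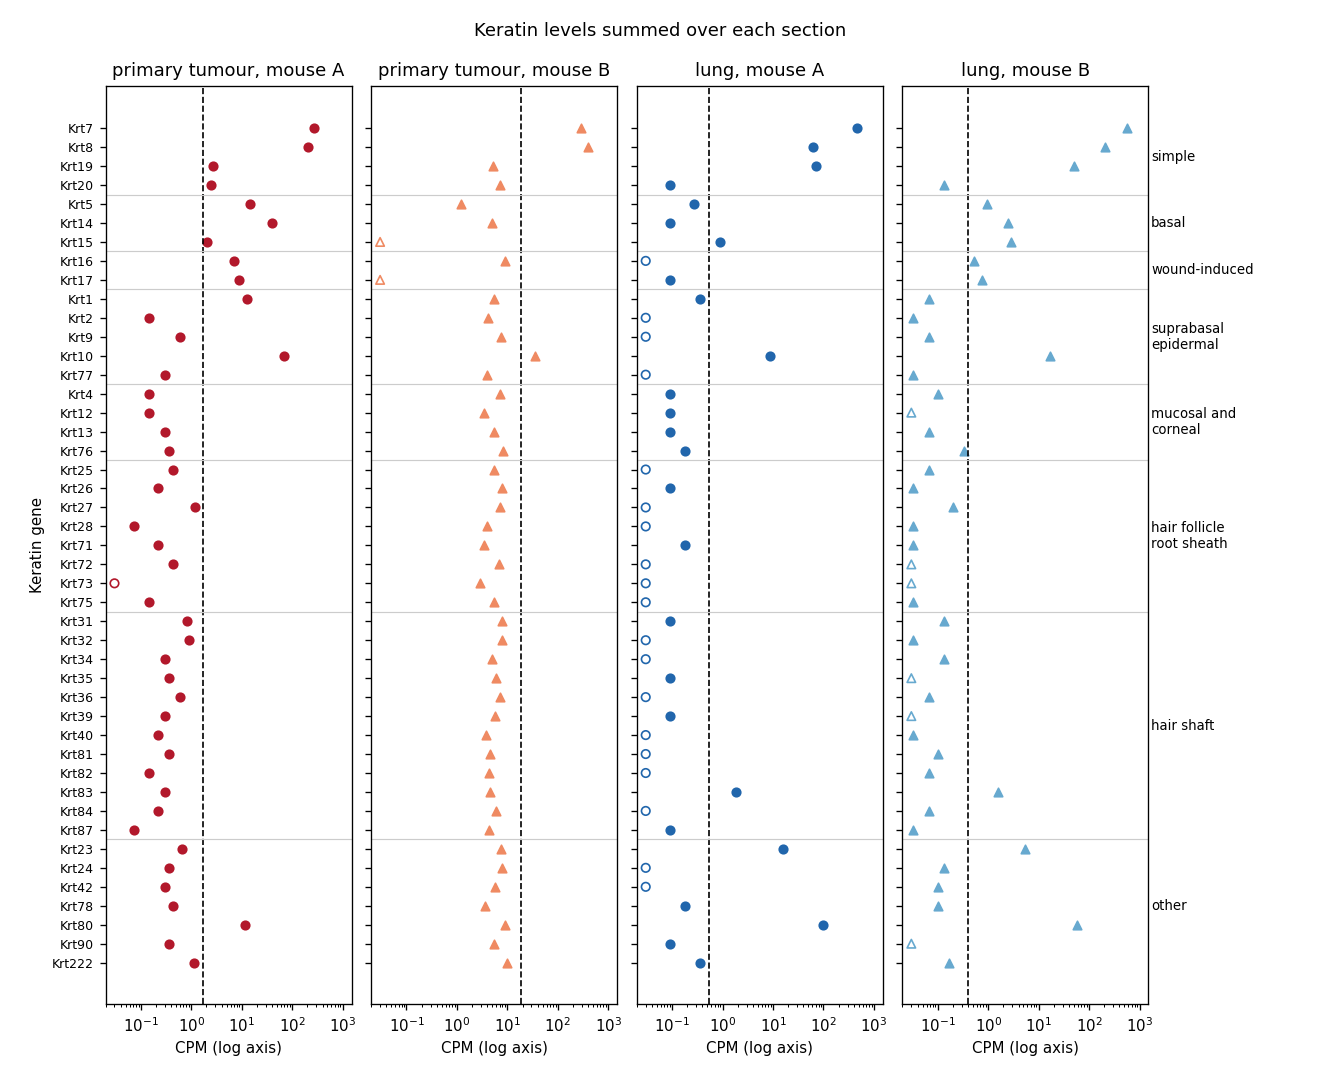
CPM of each of the 45 keratins (rows, grouped by class) in the 4 sections, on log axes; 1 point per gene and section, open points at the left edge mark genes with 0 UMIs, and the dashed line is the 95th percentile of the receptor genes. Krt7 and Krt8 stand to the right of the line in all 4 sections, while in the primary tumour of mouse B the 42 keratins left of the line crowd below 9.83 CPM.

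Krt7, a type II keratin of simple ductal and lung epithelia, was present at 273 and 289 CPM in the primary tumours of mice A and B and at 455 and 569 CPM in their lungs. Both lungs were above both tumours, but the difference did not pass the test (log2 1.15 ± 0.40 SE, adjusted p = 0.124). Krt8, the type II partner in the simple keratin pair, was at 208 and 400 CPM in the tumours and at 61.7 and 204 CPM in the lungs. Its lung values were lower in each mouse, yet the tumour of mouse A and the lung of mouse B were close together, and the test was not passed (log2 -0.95 ± 0.53 SE, adjusted p = 0.316). Krt19, a type I keratin of ducts and airways that lacks most of the usual tail, was at 2.73 and 5.23 CPM in the tumours and at 71.1 and 50.8 CPM in the lungs. Krt80, a type II keratin found at cell contacts in many epithelia, was at 11.4 and 9.0 CPM in the tumours and at 98.0 and 58.0 CPM in the lungs. For Krt19 and for Krt80 the groups were far apart.

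Of 17 keratins that passed the filter on low counts, 2 were called at an adjusted p under 0.05 by the quasi-likelihood test of edgeR, both higher in the lung, against 7.46% of all 15267 genes tested (6.31% higher and 1.15% lower in the lung). These were Krt19 (log2 4.28 ± 0.50 SE, adjusted p = 0.00419) and Krt80 (log2 3.26 ± 0.47 SE, adjusted p = 0.00624), each higher in the lung of both mice, and in the tumour of mouse B both were below the receptor level. The median log2 difference over the 17 tested keratins was -3.43, beside -0.0046 over all genes, and it includes keratins at the receptor level in the tumour of mouse B. With 1 section left out the log2 difference was 4.04 to 4.83 for Krt19 and 2.82 to 3.88 for Krt80. The number of keratins called rose with any 1 section left out, which leaves 1 section in a tissue. No share of all genes is set beside those counts, and in the tumour of mouse B 42 keratins were not above the receptor level. The counts are therefore not read as a result about keratins.

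Among keratins of stratified epithelia, Krt14, Krt5, Krt10 and Krt1 were higher in the primary tumour of mouse A than in the other 3 sections, with wide gaps between the animals. Others, such as Krt9 (0.591 CPM in mouse A and 7.44 CPM in mouse B) and Krt76 (0.369 and 8.17 CPM), were higher in the tumour of mouse B, below its receptor level. Krt14, the type I keratin of basal keratinocytes, was at 39.2 CPM in the tumour of mouse A and at 4.87 CPM in that of mouse B, against 0.0899 and 2.45 CPM in the lungs (log2 -3.88 ± 1.26 SE, adjusted p = 0.105). Krt5, its type II partner, was at 14.4 and 1.19 CPM in the tumours and at 0.270 and 0.959 CPM in the lungs (adjusted p = 0.212). Krt10, the type I keratin of suprabasal epidermis, was at 70.0 and 34.6 CPM in the tumours and at 8.72 and 16.6 CPM in the lungs, so both tumours were above both lungs (log2 -1.80 ± 0.47 SE, adjusted p = 0.0513). Its type II partner Krt1 was at 12.5 and 5.33 CPM in the tumours and at 0.360 and 0.0661 CPM in the lungs (adjusted p = 0.0708). In a paired edgeR model that held the mouse as a block, Krt10 (adjusted p = 0.00708) and Krt14 (adjusted p = 0.0260) were also called lower in the lung, 4 keratins in all. In the tumour of mouse B only Krt10 of these 4 was above the 19 CPM of its receptor genes. The share of all genes called in the paired model is not given here, so its count is not read as a result about keratins.

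Krt20, a simple type I keratin of the gut epithelium, was at 2.44 and 7.16 CPM in the tumours and at 0.0899 and 0.132 CPM in the lungs (adjusted p = 0.137), and in mouse B its tumour value was below the receptor level. Krt23, a type I keratin of glandular epithelia, was at 0.665 and 7.35 CPM in the tumours and at 15.7 and 5.32 CPM in the lungs (adjusted p = 0.362 by edgeR). The tissues overlapped through the tumour value of mouse B, which was below the receptor level.

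Krt17 and Krt15 had UMIs in 1 of the 2 tumours, while Krt16 was at like levels in both. Krt17, a type I keratin of hair follicles and of activated keratinocytes, was at 8.79 CPM in the tumour of mouse A and had 0 UMIs in that of mouse B, where 3 UMIs would be 0.275 CPM. The median receptor gene was at 6.61 CPM in that section. A count of 0 there lies below the section's own level for genes not in use, and 0.275 CPM is not read as a bound. Krt15, a type I keratin of basal and follicle stem cells, was at 2.07 CPM in the tumour of mouse A and also had 0 UMIs in that of mouse B. It was at 0.899 and 2.84 CPM in the lungs. Krt16, induced with Krt17 in wounds, was at 7.09 and 8.82 CPM in the tumours, but had 0 UMIs in the mouse A lung and 0.529 CPM in the other lung. In the tumour of mouse B Krt16 lay below the receptor level, as did Krt14, Krt5 and Krt1.

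The 20 hair follicle keratins (8 of the root sheath and 12 of the shaft) were all at or below the receptor level in both tumours. In the primary tumour of mouse B their summed UMIs per spot were 0.491, 0.592, 0.535 and 0.398 from the shallowest to the deepest of 4 equal groups of spots, while Krt7 went from 0.292 to 4.01 UMIs per spot and Krt8 from 0.283 to 5.85. Over the same 4 groups the 20 genes gave 0.0225, 0.0370, 0.0531 and 0.0465 UMIs per spot in the tumour of mouse A, 0.0094, 0.0236, 0.0165 and 0.0165 in the lung of mouse A, and 0.0230, 0.0288, 0.0374 and 0.0259 in the lung of mouse B. In the tumour of mouse A the values were higher in the deeper groups, on 14 to 33 UMIs a group, and in that of mouse B the deepest group was the lowest. Among them only Krt83, of the hair shaft, stood above the receptor level in the lungs, at 1.89 and 1.59 CPM.

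To ask where the keratins lie, spots were classed by marker genes of other kinds, with no keratin among them. In the lung, 85 and 139 airway-marker spots, 85 and 139 carcinoma-marker spots and 424 and 695 alveolar-marker spots were taken in mice A and B. In the primary tumour, 124 and 119 carcinoma-marker spots were taken, and epidermal-marker spots, with at least 5 of 12 markers of cornifying skin, numbered 21 in mouse A and 0 in mouse B. A spot class is a range of a score and mixes cells: the 9 alveolar markers summed to 11116 CPM in the carcinoma-marker lung spots of mouse A and to 2171 CPM in those of mouse B. The carcinoma markers there summed to 813 and 2872 CPM, against 6592 and 9161 CPM in the carcinoma-marker tumour spots. The highest carcinoma score of any lung spot of mouse A was 1.28, and 173 lung spots of mouse B had a score of at least 1.5. The part of this mixing in the results below was not tested.

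Summed by kind, basal, suprabasal and wound-induced keratins were higher in the epidermal-marker spots than in any of the other marker classes. The 4 simple keratins were at 644 and 809 CPM in the airway-marker spots of mice A and B, at 635 and 816 CPM in the alveolar-marker spots, at 697 and 811 CPM in the carcinoma-marker lung spots, at 524 and 757 CPM in the carcinoma-marker tumour spots and at 354 CPM in the epidermal-marker spots of mouse A. The 3 basal keratins were at 1116 CPM in the epidermal-marker spots, at 18.1 and 94.0 CPM in the airway-marker spots and at 5.43 CPM or less in every sum of the other marker classes. The 5 suprabasal keratins were at 1453 CPM in the epidermal-marker spots, at 20.8 and 28.3 CPM in the carcinoma-marker tumour spots and at 5.43 and 6.78 CPM in the airway-marker spots. In the epidermal-marker spots, basal and suprabasal keratins were thus present together with simple ones, and in the airway-marker spots basal keratins were present with few suprabasal ones. The wound-induced pair was at 346 CPM in the epidermal-marker spots and at 5.43 CPM or less in each of the other marker classes. Tumour spots in no marker class held this pair at 13.4 and 10.7 CPM in mice A and B, and basal keratins at 49.2 and 7.07 CPM.

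**Figure D2:**
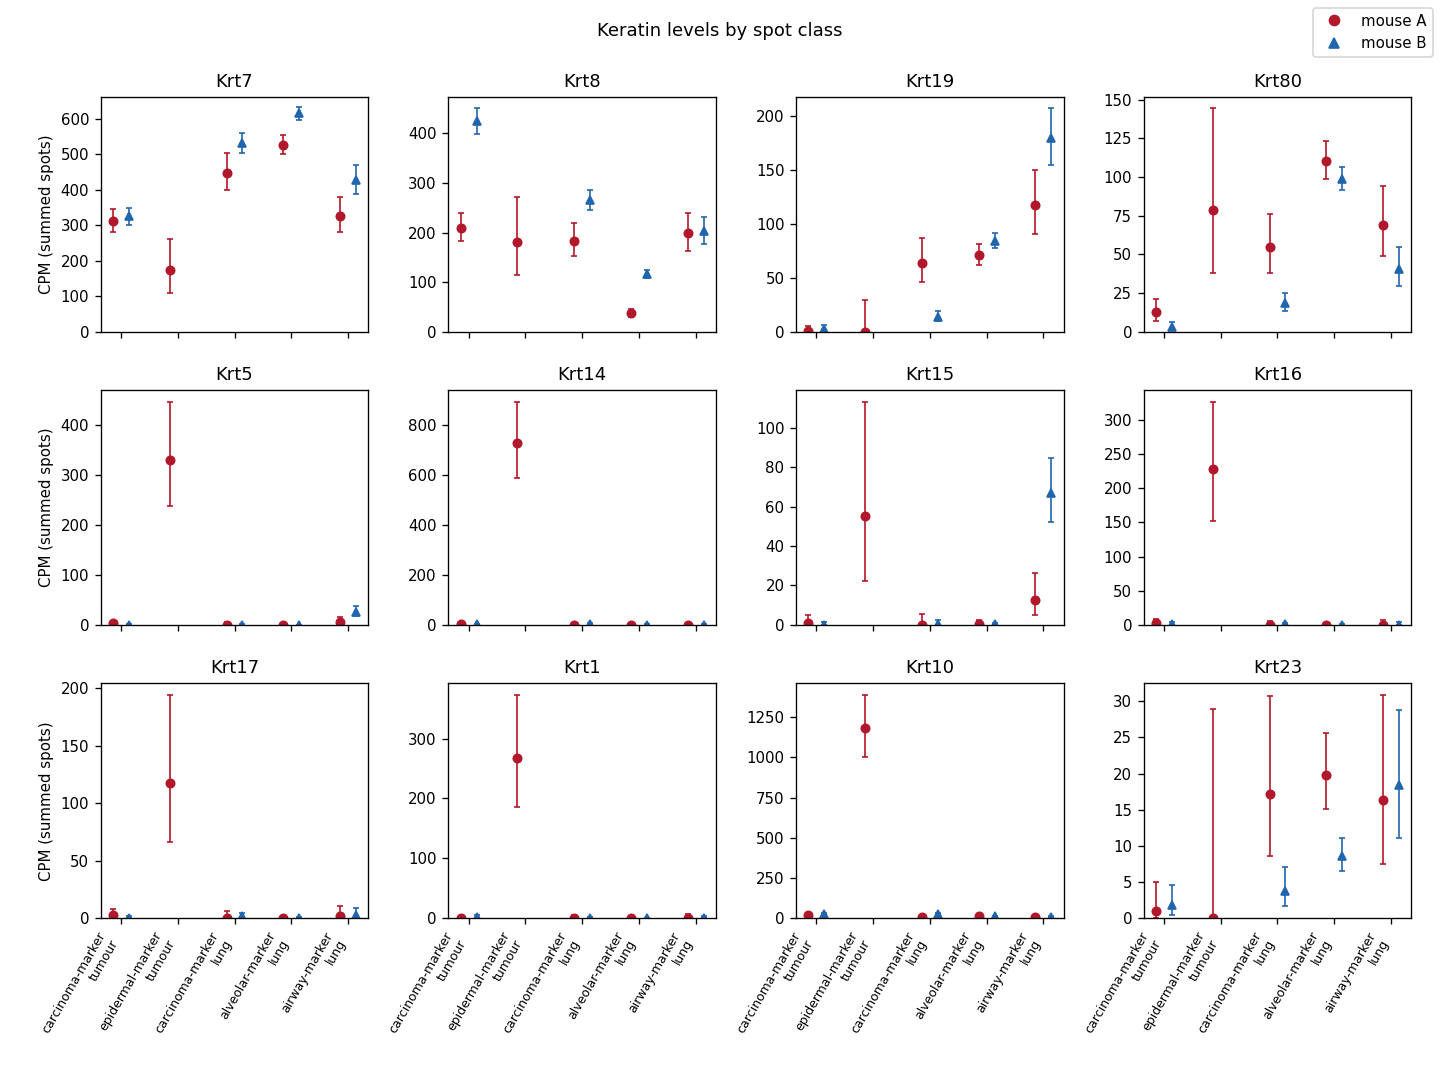
CPM of 12 keratins in summed spots of each class, with the 5 classes along the horizontal axis and a linear vertical axis from 0; circles are mouse A, triangles mouse B, and bars are exact 95% Poisson intervals for counting error. Krt5, Krt14, Krt16, Krt17, Krt1 and Krt10 are highest in the epidermal-marker spots, which mouse B lacks, and Krt19 is highest in the airway-marker spots of both mice.

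Of the 3 basal keratins, Krt15 and Krt5 were at higher levels in airway-marker than in alveolar-marker spots, and Krt14 was near 0 in both. Krt15 had 7 UMIs (12.7 CPM) in the airway-marker spots of mouse A and 69 (66.9 CPM) in those of mouse B, against 2 UMIs in the alveolar-marker spots of each mouse (0.683 and 0.297 CPM). Within mouse B this is a ratio of 225 with a 95% counting interval of 60.1 to 1899, and within mouse A of 18.5 (3.53 to 183). Krt5 had 3 UMIs (5.43 CPM) in the airway-marker spots of mouse A and 27 (26.2 CPM) in those of mouse B, with 0 UMIs in the alveolar-marker spots of both mice, and was at least 58.8-fold higher in mouse B with 3 UMIs of that sum as the floor. Both were higher in the airway-marker spots of each mouse. Krt14, the partner of Krt5 in skin, had 0 and 1 UMIs in the airway-marker spots and 0 and 6 in the alveolar-marker spots (0.969 against 0.890 CPM in mouse B). Other cells differed between these classes too: the 9 alveolar markers were at 6351 and 4428 CPM in the airway-marker spots against 17680 and 16176 CPM, 4 neutrophil markers at 41256 and 20776 against 66899 and 45839 CPM, and 4 heart muscle markers at 963 and 1381 against 108 and 113 CPM, and their part in the results was not tested.

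In the test over 12153 genes, Krt15 (log2 6.30 ± 0.93 SE, adjusted p = 0.0115) and Krt5 (adjusted p = 0.0167) were the 2 of 12 tested keratins called by edgeR, both higher in the airway-marker spots, against 5% of all genes (4.73% higher and 0.272% lower). Krt5 passed the filter on low counts only through the epidermal-marker sum of mouse A in the same fit, where it is high. Without that sum Krt5 was not tested, 7 keratins were tested and 1 was called. The share of all genes called without that sum is not given here. Of the 12 tested in each comparison of classes, 5 thus entered through skin alone. Neither call held with 3 of the 4 sums: the adjusted p of Krt15 was 0.0681 without the airway-marker sum of mouse A, 0.467 without that of mouse B, 0.115 without the alveolar-marker sum of mouse A and 0.409 without that of mouse B. That of Krt5 was 0.0786, 0.410, 0.125 and 0.391 in the same order.

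The same UMIs were then read spot by spot. In the lung of mouse B, 27 of 29 Krt5 UMIs and 69 of 86 Krt15 UMIs lay in the 139 airway-marker spots, which held 3.41% of all UMIs of that lung. Of these spots 12 had a Krt5 UMI, 26 a Krt15 UMI and 10 had both, with up to 7 Krt5 and 11 Krt15 UMIs in a spot. Mouse A gave fewer molecules, and all 3 of its lung Krt5 UMIs and 7 of 10 Krt15 UMIs lay in the 85 airway-marker spots, with 4.97% of all UMIs. Across lung spots of mouse B the correlation of log levels of Krt5 with Krt15 was 0.51 and of Krt5 with Krt14 -0.01 (2780 spots of 1 section, which share depth and neighbours, a description). Krt14 was spread otherwise: 1 of its 74 UMIs in that lung was in an airway-marker spot, and 68 other spots had one. The share of airway-marker spots of mouse B with a Krt15 UMI was 18.7% against 0.288% of alveolar-marker spots, at median depths of 6956 and 8788 UMIs, and 5.8% of the former kept one after thinning to 1000 UMIs.

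Among simple keratins, Krt8 was at 199 and 203 CPM in the airway-marker spots of mice A and B and at 37.2 and 115 CPM in the alveolar-marker spots, a log2 difference of 1.41 ± 0.35 SE that did not pass the test (adjusted p = 0.0612). Krt19 was at 118 and 179 CPM against 71.4 and 84.5 CPM (adjusted p = 0.464). Krt7 and Krt80 were higher among alveolar-marker spots in both mice: Krt7 was at 527 and 616 CPM there against 328 and 427 CPM (adjusted p = 0.0880). Krt80 was at 111 and 98.7 CPM there against 68.8 and 40.7 CPM (adjusted p = 0.0987). None of these 4 genes was called. Their groups did not overlap, but the share of all genes without overlap was not counted, so this is not read as a result about them. Krt23 was at 16.3 and 18.4 CPM against 19.8 and 8.60 CPM, and the groups overlapped.

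**Figure D3:**
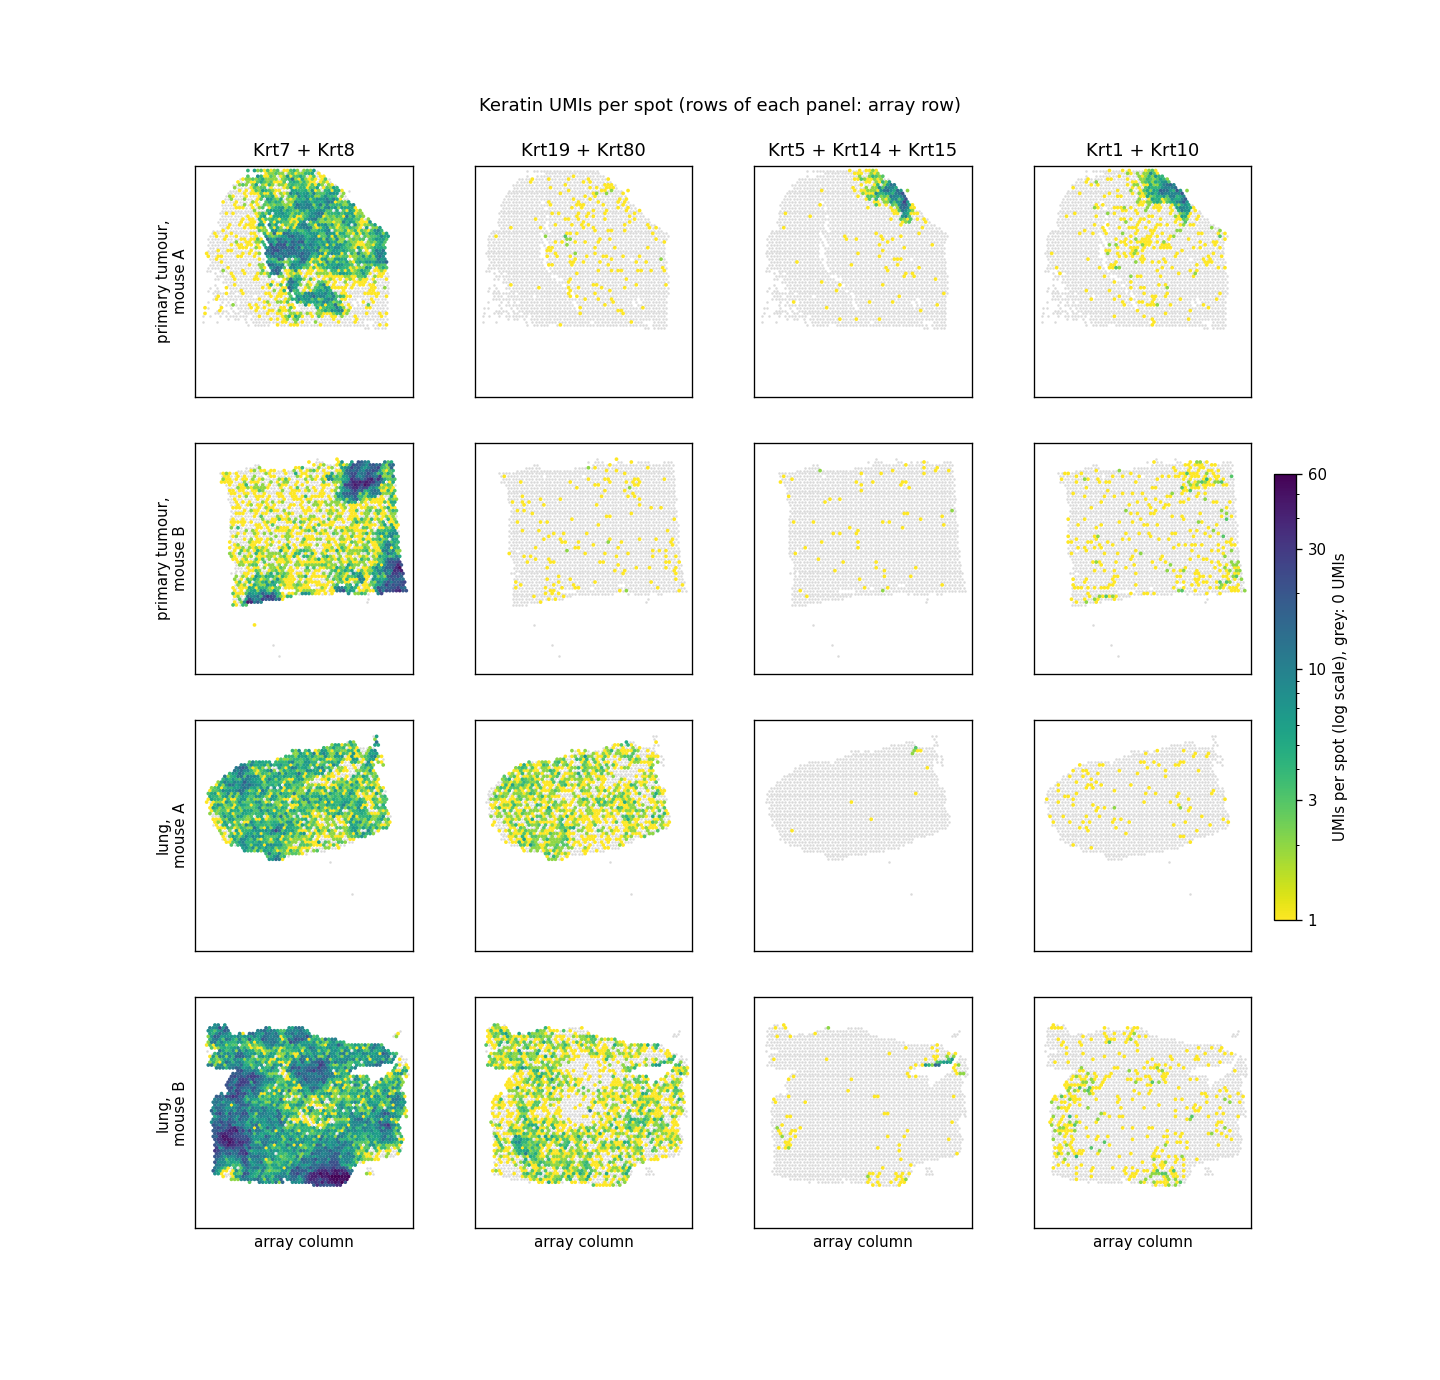
Maps of the 4 sections (rows), with array column across and array row down, each point 1 spot coloured by UMIs on a log scale and grey at 0, for 4 sums of keratins (columns). The sum of Krt5, Krt14 and Krt15 fills 1 patch at the edge of the primary tumour of mouse A, and in the mouse B lung it shows a short line of spots, where Krt5 and Krt15 lie, beside scattered spots, while Krt7 and Krt8 cover most spots of the lungs.

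Carcinoma-marker lung spots were set against alveolar-marker spots to ask which keratins differ with the level of carcinoma markers in the lung. The alveolar-marker spots held the carcinoma markers too, at 107 and 552 CPM in mice A and B. Krt8 was at 184 and 266 CPM in the carcinoma-marker lung spots against 37.2 and 115 CPM in the alveolar-marker spots, which within mouse A is a ratio of 4.94 (95% counting interval 3.77 to 6.47) and within mouse B of 2.30 (2.07 to 2.56). Krt80 was at 54.5 and 18.5 CPM against 111 and 98.7 CPM, lower in both mice. Krt19 was at 63.9 and 14 CPM against 71.4 and 84.5 CPM, and the ratio in mouse B was 0.165 (0.113 to 0.233) and in mouse A 0.895 (0.624 to 1.26). Krt7 was at 449 and 531 CPM against 527 and 616 CPM. The 5 mesothelium markers, of a lining that also uses simple keratins, were at 84.2 and 504 CPM in these spots against 27.0 and 128 CPM in the alveolar-marker spots, and the 4 neutrophil markers at 40457 and 4069 CPM against 66899 and 45839 CPM. Wt1 and Lrrn4 in mouse A and Upk3b in mouse B were at 0 among the mesothelium markers of the carcinoma-marker lung spots, and the part of these cells was not tested.

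Of the 12 tested keratins, 0 were called, as were 0% of the 12153 genes by edgeR, while 3 keratins had an unadjusted p under 0.05 and DESeq2 also called 0 keratins. These 3 were Krt8 (log2 1.46 ± 0.35 SE, adjusted p = 0.0668), Krt80 (log2 -1.99 ± 0.35 SE, adjusted p = 0.0668) and Krt19 (log2 -1.51 ± 0.59 SE, adjusted p = 0.118). No share of all genes is given for the unadjusted p or for DESeq2. The calls depended on single sums, and no share of all genes is given for the fits with 1 sum left out. In the fits with 1 sum left out the log2 difference was 1.08 to 2.12 for Krt8, -2.44 to -1.30 for Krt80 and -2.78 to -0.31 for Krt19. That of Krt10 was 1.17 without the carcinoma-marker lung sum of mouse A. Krt10 was at 4.68 and 25.9 CPM in carcinoma-marker lung spots against 10.9 and 9.79 CPM in alveolar-marker spots, lower in mouse A and higher in mouse B.

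Ordering all lung spots by score gave the course of each keratin in 5 equal groups. In the lung of mouse B Krt8 was at 79.5, 117, 150, 250 and 281 CPM from the lowest to the highest carcinoma score, while Krt19 was at 89.6, 76.3, 74.3, 42.3 and 20.4 CPM and Krt80 at 104, 86.6, 78.2, 50.0 and 25.2 CPM. Over these groups Krt8 thus went up as Krt19 and Krt80 went down. Spot by spot, the correlation of log Krt8 with log Krt19 was 0.06 in the lung of mouse A and -0.08 in that of mouse B. With log Krt80 it was -0.01 and -0.19. In the lung of mouse A the median carcinoma score was 0 in each of the first 3 groups. These are largely tied spots, so no course by score can be read over them. Krt8 there was between 42.6 and 51.6 CPM in the first 4 groups and at 122 CPM in the top one. Over all 5 groups of that lung Krt19 was between 62.9 and 75.3 CPM and Krt80 between 84.5 and 111 CPM. By alveolar score, Krt8 went from 111 CPM in the lowest group to 36.9 CPM in the highest in mouse A, and from 297 to 110 CPM in mouse B. In proportion to its level Krt7 varied least over the groups by carcinoma score. It was between 423 and 486 CPM in mouse A and between 506 and 599 CPM in mouse B. The share of spots with a Krt8 UMI was 60% and 96.4% in the carcinoma-marker lung spots of mice A and B against 21.9% and 57.7% in the alveolar-marker spots. With every spot thinned to 1000 UMIs these shares were 10.7% and 20.1% against 4.72% and 10.9%, the higher again in the carcinoma-marker spots. Median depths were 6674 and 17014 UMIs against 6921 and 8788. The thinned shares were 16.9% and 16.5% in the airway-marker spots of mice A and B, and 6.48% and 18.9% in lung spots of no marker class. Over spots, the correlation of log Krt8 with the carcinoma score came to 0.26 (mouse A) and 0.47 (mouse B) for lung spots, and to 0.32 and 0.27 for tumour spots (1697 to 2780 spots of 1 section each, a description in sparse counts). The same correlation for Krt19 was -0.00 and -0.23 in the lungs.

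**Figure D4:**
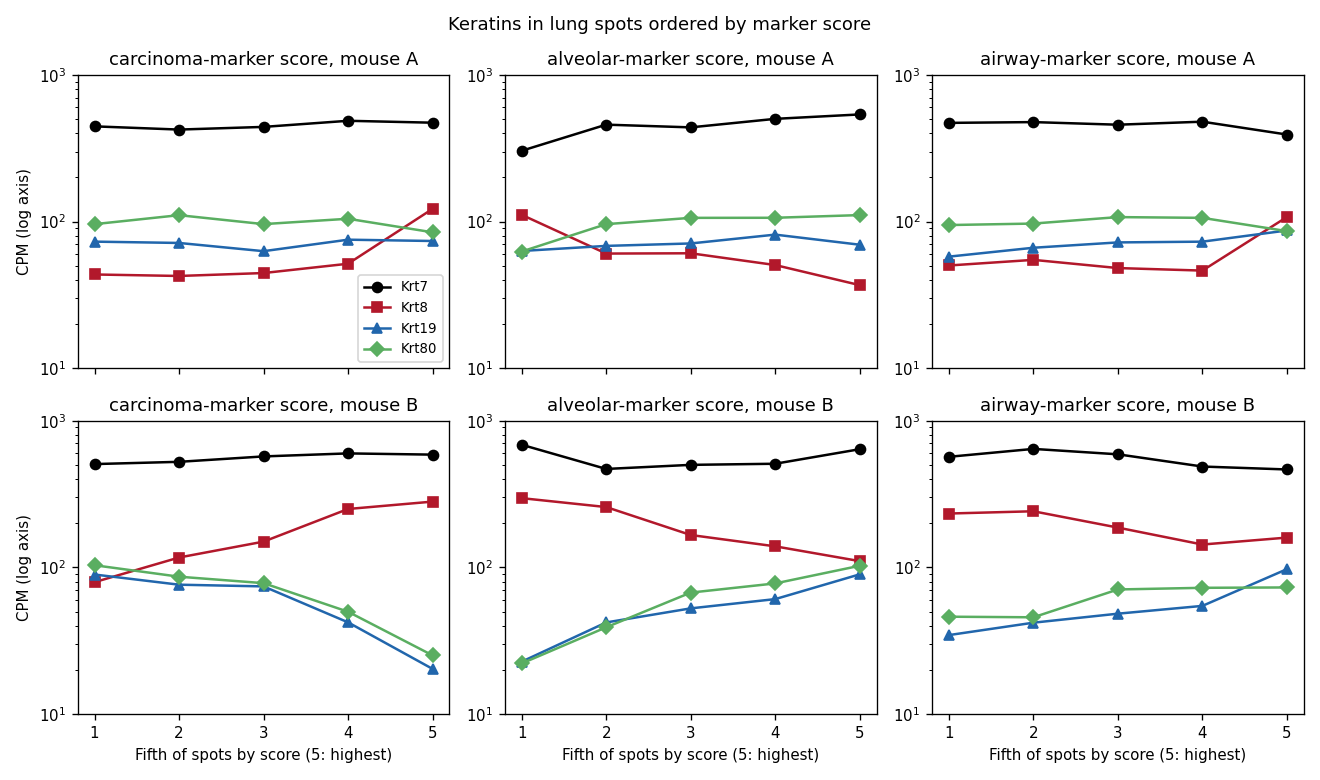
CPM of Krt7, Krt8, Krt19 and Krt80 on log axes in lung spots split into 5 equal groups by carcinoma-marker, alveolar-marker or airway-marker score (columns), for mouse A (top) and mouse B (bottom), 1 point per group of summed spots with no error bar. In mouse B Krt8 climbs from 79.5 to 281 CPM with the carcinoma score as Krt19 goes from 89.6 to 20.4 CPM. In mouse A the first 3 groups by carcinoma score each have a median score of 0.

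Carcinoma-marker spots of the lung were next compared with those of the primary tumour. Krt80 was at 54.5 and 18.5 CPM in the lung spots and at 12.7 and 3.10 CPM in the tumour spots, higher in the lung of each mouse. It was the 1 of 12 tested keratins called (log2 2.14 ± 0.45 SE, adjusted p = 0.0370 by edgeR), against 5.34% of all genes (3.2% higher and 2.14% lower in the lung). The call was lost without the lung sum of mouse A (adjusted p = 0.110), without the tumour sum of mouse A (0.0692) or of mouse B (0.168), and without the mouse in the model (0.171), and kept without the lung sum of mouse B (0.00805). Krt19 had 41 and 34 UMIs in the lung spots (63.9 and 14 CPM) and 1 and 6 UMIs in the tumour spots (0.906 and 2.66 CPM), and its difference was just short of the threshold (log2 3.77 ± 0.90 SE, adjusted p = 0.0513). Alveolar-marker spots of the same lungs held Krt19 at 71.4 and 84.5 CPM and Krt80 at 111 and 98.7 CPM. Krt8 was at 184 and 266 CPM in the lung and at 210 and 424 CPM in the tumour spots (log2 -0.56 ± 0.34 SE, adjusted p = 0.339), and Krt7 at 449 and 531 against 312 and 325 CPM (log2 0.51 ± 0.22 SE, adjusted p = 0.186).

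Airway-marker lung spots and carcinoma-marker tumour spots were the last of the 4 pairs of classes tested, and the one with the most calls among these 4. Here 5 of 12 tested keratins were higher and 1 lower in the airway, against 35.5% of all genes called (21.6% higher and 13.9% lower). Without the epidermal-marker sum, 7 were tested and 4 called. The share of all genes called in that fit is not given here, so this count describes stability only. Krt19 was at 118 and 179 CPM against 0.906 and 2.66 CPM (log2 6.07 ± 0.81 SE, adjusted p = 0.0016 by edgeR), and Krt80 at 68.8 and 40.7 CPM against 12.7 and 3.10 CPM (log2 2.94 ± 0.44 SE, adjusted p = 0.00238). These calls held without any 1 of the 4 sums. Krt15 had 7 and 69 UMIs against 1 and 0 (adjusted p = 0.00364 by edgeR). Its 0 was in the carcinoma-marker tumour spots of mouse B, with a median of 16018 UMIs against 1820 over the whole section. The median receptor gene was at 6.61 CPM over the whole section. The 12 hair shaft keratins summed to 11.9 CPM in these spots and to 67.1 CPM over the section. The receptor level of these spots is not given, so none is set beside this or their other keratins. Krt5, tested only with the epidermal-marker sum in the fit, had 3 and 27 against 3 and 1 (adjusted p = 0.0291 by edgeR). Krt23 had 9 and 19 against 1 and 4 (adjusted p = 0.0153 by edgeR). These 3 calls were lost without the airway-marker sum of mouse B, at adjusted p of 0.15, 0.615 and 0.174. They also depended on the tumour sums: Krt15 (0.0670) and Krt5 (0.529) were lost without that of mouse B and Krt23 (0.0896) without that of mouse A. Krt10 was at 5.43 and 6.78 CPM in the airway against 19.9 and 23.9 CPM in the tumour spots (log2 -1.91 ± 0.62 SE, adjusted p = 0.0427 by edgeR). This call was lost without any 1 sum, where the log2 difference was -1.99 to -1.79. In all, Krt10 was called in 1 of 11 alternatives. Krt7 and Krt8 were not called, at log2 0.19 ± 0.22 SE (adjusted p = 0.528) and -0.61 ± 0.35 SE (adjusted p = 0.199).

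With a minimum of 5 epidermal markers, a class of epidermal-marker spots was found at the edge of 1 section. With a minimum of 4 markers, 55 spots of the primary tumour of mouse A and 4 of that of mouse B would be taken, and 1 lung spot of mouse B had 5 markers. The 21 epidermal-marker spots of the primary tumour of mouse A lay in array rows 2 to 11 of 0 to 55, and held 127279 UMIs. Of the 12 markers 10 were detected, led by Lgals7 with 311 UMIs and Krtdap with 84, while the cornified envelope genes Lor and Flg2 had 0 UMIs, and the 5 hair follicle markers had 0 UMIs as well. Carcinoma markers summed to 2459 CPM there. With 1 section, no test was made, and intervals cover counting error only.

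Of the spot classes, these spots held the highest levels of Krt10, Krt1, Krt14, Krt5, Krt16 and Krt17, while the 4 mucosal or corneal keratins had 0 UMIs. Krt10 was at 1186 CPM (95% Poisson interval 1005 to 1391) and Krt1 at 267 CPM (185 to 373). Krt14 was at 731 CPM (590 to 895) and Krt5 at 330 CPM (238 to 446). Krt16 was at 228 CPM (153 to 327), Krt17 at 118 CPM (66.0 to 194) and Krt15 at 55.0 CPM (22.1 to 113). In the carcinoma-marker spots of the same section Krt10 was at 19.9 CPM, Krt14 had 2 UMIs, Krt5, Krt16 and Krt17 had 3 each, Krt15 had 1 and Krt1 had 0. The ratio of epidermal-marker to carcinoma-marker spots was 59.5 for Krt10 (37.9 to 97.9) and 403 for Krt14 (109 to 3381), and Krt1 was at least 98.3-fold higher.

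The simple keratins Krt7 and Krt8 were not higher in the epidermal-marker spots. Krt8 was at 181 CPM (115 to 271) in the epidermal-marker spots against 210 CPM (184 to 239) in the carcinoma-marker spots, Krt7 at 173 CPM (108 to 262) against 312 CPM (280 to 347), and Krt19 had 0 UMIs, which allows up to 23.6 CPM at 3 UMIs. Krt80, which is not of the simple class, was higher there, at 78.6 CPM (37.7 to 144) against 12.7 CPM (6.93 to 21.3). Of the 21 spots, 21 had a Krt10 UMI, 20 a Krt14, 18 a Krt1, 17 a Krt16, 15 a Krt5 and 12 a Krt17 UMI, and 20 had both Krt14 and Krt10, so that basal and suprabasal layers were not resolved by the spots. Krt7 and Krt8 UMIs were found in 13 spots each.

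Around these spots the stratified keratins went down with distance, in steps of the spacing between neighbouring spots. Krt10 was at 750 CPM within 1.5 spacings (43 spots), 317 CPM at 1.5 to 3.5 (79 spots), 43.5 CPM at 3.5 to 10 (287 spots) and 23.6 CPM beyond 10 spacings (2060 spots). Krt14 was at 569, 232, 25.6 and 3.53 CPM and Krt1 at 167, 87.4, 6.51 and 0.505 CPM in the same zones. Krt17 was at 132 CPM within 1.5 spacings, close to its 118 CPM in the epidermal-marker spots themselves, and at 1.31 CPM beyond 10. Within 10 spacings lay 17.3% of the spots and 26.8% of all UMIs, but 93.4% of the Krt14 UMIs of the section, 92.3% of Krt5, 97.0% of Krt1, 89.1% of Krt17, 83.3% of Krt16 and all of Krt15. Krt10 differed from Krt1, with 75.3% of its UMIs in these zones. Krt7 and Krt8 had 23.8% and 26.3% of their UMIs there, near the share of all UMIs.

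**Figure D5:**
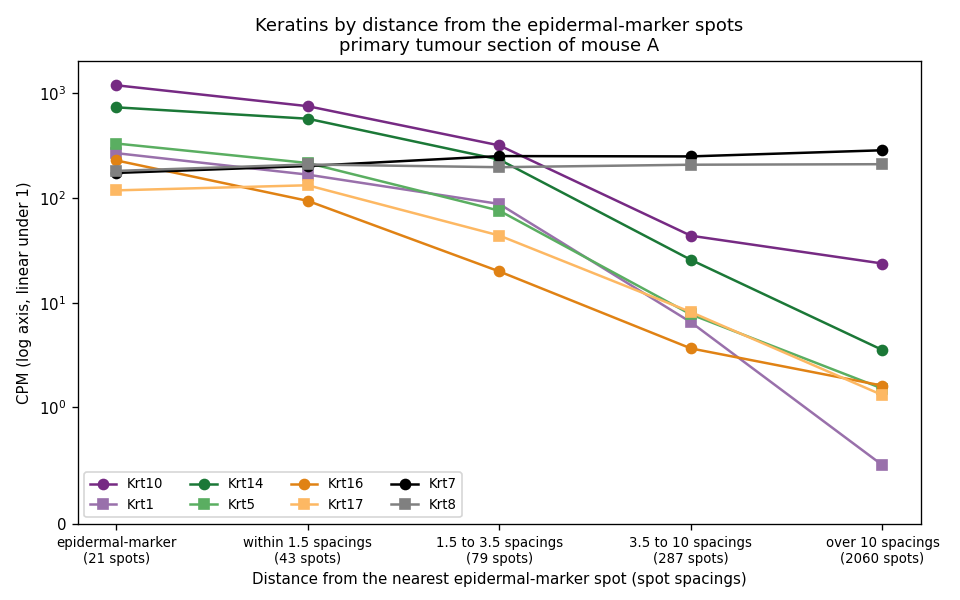
CPM of 8 keratins (log axis, linear under 1) in the primary tumour section of mouse A, in the 21 epidermal-marker spots and in 4 zones of growing distance from them in spot spacings, 1 point per zone of summed spots. Krt10 goes from 1186 to 23.6 CPM and Krt14 from 731 to 3.53 CPM, while Krt8 remains between 181 and 209 CPM.

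Keratin filaments are anchored at desmosomes and hemidesmosomes, and 25 genes of these junctions and of epithelial identity were read beside the keratins. In lung against tumour sections 4 of 24 tested were higher and 1 lower, against 6.31% and 1.15% of all genes, with Cldn7 (a claudin, log2 3.36 ± 0.51 SE, adjusted p = 0.00754), Cdh1 (E-cadherin, log2 3.05 ± 0.49 SE, adjusted p = 0.00902), Epcam and Jup (plakoglobin) higher and Pkp1 (plakophilin 1) lower. In the tumour of mouse B, Cldn7, Cdh1, Epcam and Pkp1 were at 7.53, 8.91, 10.7 and 8.36 CPM, all below the 19 CPM of its receptor genes, as was Dsc2 at 8.91 CPM. In airway-marker against alveolar-marker spots 6 of 24 were higher and 0 lower, against 4.73% and 0.272% of all genes, among them Dsg2 (desmoglein 2, log2 2.63 ± 0.58 SE, adjusted p = 0.0394), Dsc2, Itgb4 (integrin beta 4 of hemidesmosomes) and the epithelial splicing factor Esrp1. Between carcinoma-marker spots of lung and tumour 1 was higher and 3 lower, against 3.2% and 2.14% of all genes, and the 3 lower ones were Dsc2 (desmocollin 2), Ppl (periplakin) and Dst (dystonin, log2 -1.35 ± 0.27 SE, adjusted p = 0.0348). None of the 24 was called between carcinoma-marker and alveolar-marker lung spots, where 0 of all genes were. In the comparisons of classes the fit held the epidermal-marker sum of mouse A. Genes of the list that passed the filter only through it were not counted apart. The 3 genes of the list named for the highest value in any section were Vim, Dst and Plec (plectin, which ties keratin filaments to junctions). Vim was at 6217 and 6858 CPM in the tumours of mice A and B and at 1458 and 2813 CPM in the lungs. Dst was at 568 and 516 against 105 and 234 CPM, and Plec at 429 and 345 against 305 and 446 CPM. In airway-marker lung against carcinoma-marker tumour spots 9 were higher and 2 lower, against 21.6% and 13.9% of all genes, the latter Dst and Vim (vimentin, the intermediate filament of mesenchymal cells, log2 -1.96 ± 0.33 SE, adjusted p = 0.00343).

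The carcinoma-marker tumour spots held Krt7 and Krt8 beside low levels of Cdh1 and Epcam. Over the 24 tested genes of the list the median log2 difference of airway-marker from tumour spots was 1.38, towards the airway. This median may include genes that passed the filter only through the epidermal-marker sum, so no conclusion about the list is drawn from it. Pkp1, Dsg3, Dsc3, Col17a1 and Trp63 had 0 UMIs in the airway-marker spots of mouse A. Cdh1 was at 1.81 and 5.31 CPM and Epcam at 4.53 and 7.52 CPM in the tumour spots of mice A and B, against 95.9 and 142 CPM and 156 and 236 CPM in the airway-marker spots. Some genes of the list went the other way. Dst was at 622 and 612 CPM in the tumour spots against 152 and 161 CPM in the airway-marker spots, Ppl at 71.5 and 99.6 against 50.7 and 60.1 CPM, and Itgb4 at 156 and 193 against 119 and 128 CPM. Vim was at 6367 and 5998 CPM in the tumour spots and at 1754 and 1497 CPM in the airway-marker spots. Trp63, a master factor of basal epithelial cells, was at 39.3 CPM in the epidermal-marker spots, at 0 and 15.5 CPM in the airway-marker spots of mice A and B, and at 1.81 and 0 CPM in the carcinoma-marker tumour spots. Krt5 was at 330 CPM, at 5.43 and 26.2 CPM and at 2.72 and 0.442 CPM in the same classes. Col17a1, the hemidesmosome collagen of basal keratinocytes, was at 275 CPM in the epidermal-marker spots, and in the airway-marker spots had 0 UMIs in mouse A and 4.85 CPM in mouse B.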

How the data were processed

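Probe-based Visium libraries of 4 sections (1 primary tumour and 1 lung from each of 2 mice) were read. The authors made the deposited values with Space Ranger 2.0.0 on mm10, per their processing notes, as raw UMI counts per gene and spot. Spots under tissue with over 200 genes were kept, and UMIs were summed per section and per class of spots, with CPM set on all UMIs. Of 3401 spot barcodes, 2575 recur between sections, since slides share one set of positions. The score of a marker list was the mean of log2 (1 + UMIs per 10000). In the lung, the top 5% of spots by airway score were airway-marker spots, the top 5% of the rest by carcinoma score carcinoma-marker spots, and the top 25% of the remainder by alveolar score alveolar-marker spots. In the tumour, spots with UMIs of at least 5 of 12 epidermal markers were epidermal-marker spots and the top 5% of the rest by carcinoma score carcinoma-marker spots.

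Sums were tested with the quasi-likelihood test of edgeR 4.0.16 (R 4.3.3, limma 3.58.1; TMM factors, filterByExpr, Benjamini-Hochberg adjustment over all genes tested, threshold 0.05), without the mouse in the section fit and with it in the class fit, which held all classes of at least 20 spots. The lone epidermal-marker sum of mouse A was in that fit. DESeq2 1.42.0 was an alternative. Standard errors are those of log2 fold changes. In the section fit, with 2 sections per tissue, p-values rest on the spread between 2 animals. In the class fit, with the mouse in the model, they rest on the spread left after class and mouse, pooled over all classes. In both fits the estimate of the spread also draws on other genes. Tumour and lung come from the same animals: the correlation of deviations within an animal was -0.29 for sections (1 pair) and -0.16 to 0.62 for classes (6 pairs). Intervals are exact Poisson or Clopper-Pearson at 95% and cover counting error only. The floor is 3 UMIs of a sum, and ratios of counts have exact conditional intervals. Summaries used Python 3.11.15, numpy 2.4.6, scipy 1.17.1, pandas 2.3.3 and matplotlib 3.10.9.

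On simulated data with 200 changed genes, 0% of genes changed by log2 1 or 2 were called in the section design (15267 genes), and 5.05% and 75.8% in the airway against alveolar design (12153 genes). Keratins with at least 20 CPM in any section or class and those called are named, and of the junction genes the 3 highest and up to 4 called per comparison. Krt20, Trp63, Col17a1 and the other keratins with values were named after their values were seen, as were the 3 promoters. The members, marker lists and classes were chosen with earlier results of these data known. Gene positions are those of GENCODE vM21 on GRCm38.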

Additional observations from a re-analysis of the deposited data

Results flagged for a closer look

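A pair of keratin genes outside the symbol rule, since their names end in a letter, carried signal in the epidermal-marker spots of the primary tumour of mouse A. Krt6a, a type II keratin of hair follicles and wound edges and a partner of Krt16, had 47 UMIs there (369 CPM, 95% Poisson interval 271 to 491), and Krt6b had 27 UMIs (212 CPM, 140 to 309). In the carcinoma-marker spots of the same section Krt6a had 1 UMI and Krt6b 4, and in the airway-marker spots of both mice each had 0. No test was made, since the class was found in 1 section.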

How the results depend on the processing

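Of the 56 alternative counts of called keratins, 26 were within 1.5 times the count in the report. The share of all genes called under each alternative is not given beside these counts, so they describe stability only. In lung against tumour sections (2 called) the count was 5 with RLE size factors, 13 with DESeq2, 5 with no filter on low counts, 4 with the mouse as a replicate block and 8 with the block crossed between animals, which was added after seeing the data. It was 3 to 37 with 1 section left out. Krt19 and Krt80 were called under all 12 alternatives. Between airway-marker and alveolar-marker spots (2 called) it was 5 with no filter, 4 with stricter and 1 with looser class thresholds, 1 without the epidermal-marker sum in the fit (added after seeing the data; Krt5 then did not pass the filter) and 0 to 0 with 1 sum left out. Between carcinoma-marker and alveolar-marker lung spots (0 called) it was 3 with no filter and 3 with stricter thresholds, and 0 to 4 with 1 sum left out. Between carcinoma-marker spots of lung and tumour (1 called) it was 0 with RLE size factors, 2 with DESeq2, 2 with no filter, 0 with no replicate block and 2 with looser thresholds, and 0 to 2 with 1 sum left out. Between airway-marker lung and carcinoma-marker tumour spots (6 called) it was 2 to 5 with 1 sum left out. Krt10 changed direction: between carcinoma-marker and alveolar-marker lung spots its log2 difference ranged from -1.28 to 1.17 with 1 sum left out, at -1.28 and -0.18 without the carcinoma-marker or the alveolar-marker sum of mouse B. Between carcinoma-marker spots of lung and tumour it ranged from -2.30 to 0.075. Of 391 single-gene values, 304 kept direction and side of the threshold, 52 passed it newly, 32 no longer passed and 3 reversed, and the cause was not tested. The alternatives for epidermal-marker against carcinoma-marker tumour spots were not run, since 1 section held the class. Counting error is wide for basal keratins, since the lungs held 3 (mouse A) and 29 (mouse B) molecules of Krt5.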
